A study of Mus musculus with 2 samples.

Results

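The vascular endothelial growth factor (VEGF) family in mouse lung at embryonic day 15.5 was described for 10 genes. They are the ligands Vegfa, Vegfb, Vegfc, Vegfd and Pgf, the receptor tyrosine kinases Kdr, Flt1 and Flt4, and the co-receptors Nrp1 and Nrp2. The genes were chosen by name and not by a rule on their values, though earlier results of these data were known. All were found among the 43346 Ensembl genes of the tables (Vegfd is named Figf in older releases). Whole lungs of the B6NCrl strain, from male and female embryos together, were sequenced as total RNA. There were 2 libraries in 1 group: lungs of 78 embryos were pooled for replicate 1 and lungs of 62 for replicate 2. The labels give no genotype or treatment, and the lungs were not sorted into cell types. The design therefore implies a catalogue of levels and a comparison of the embryo pools, with no test of a condition.

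VEGF ligands are secreted dimers that bind receptor tyrosine kinases on endothelial cells. VEGF-A acts through KDR (VEGFR2), which carries most of the growth signal of blood vessels, and binds FLT1 (VEGFR1) more tightly, while VEGF-B and placental growth factor (the product of Pgf) bind FLT1. VEGF-C and VEGF-D bind FLT4 (VEGFR3), the receptor of lymphatic endothelium and of sprouting vessels. Neuropilins bind both VEGF ligands and class 3 semaphorins, and their short cytoplasmic tails have no kinase. In the developing lung the airway epithelium is a known source of VEGF-A, and the vascular plexus grows around the branching airways.

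Several members are spliced into proteins that differ in a short stretch, and the stretches that separate the products measured here are shown first. They were copied from the GENCODE M21 transcripts and are written 5′ to 3′ on the coding strand, and positions are on GRCm38. In Vegfa, exons 6 and 7 encode basic stretches that bind heparan sulphate. The product with neither exon, VEGF-A120 in mouse, diffuses freely, the product with exon 7 alone is VEGF-A164, and the product with both is VEGF-A188, which is held in the matrix. Capitals mark exon 6 (chr17:46022277-46022348, minus strand, 72 nt) and exon 7 (chr17:46020991-46021122, minus strand, 132 nt), and lower case marks 15 bases of the neighbouring exons on each side.
Vegfa exon 6: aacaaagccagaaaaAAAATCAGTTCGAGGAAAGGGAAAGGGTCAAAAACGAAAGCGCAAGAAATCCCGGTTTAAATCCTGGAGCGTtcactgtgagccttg
Vegfa exon 7: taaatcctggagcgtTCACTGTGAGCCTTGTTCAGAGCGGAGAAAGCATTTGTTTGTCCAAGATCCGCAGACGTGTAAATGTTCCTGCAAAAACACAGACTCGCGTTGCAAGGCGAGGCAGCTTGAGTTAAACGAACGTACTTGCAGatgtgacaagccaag

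Vegfb has a long product, VEGF-B186, which is freely soluble, and a short one, VEGF-B167, which binds heparan sulphate. The long form keeps a segment of 101 nt (chr19:6985496-6985596, minus strand), in capitals in the first line. In the short form the same upstream exon joins the bases that follow the segment (chr19:6985481-6985495, minus strand), in capitals in the second line, and the coding frame after the join differs between the forms.
Vegfb long-form segment: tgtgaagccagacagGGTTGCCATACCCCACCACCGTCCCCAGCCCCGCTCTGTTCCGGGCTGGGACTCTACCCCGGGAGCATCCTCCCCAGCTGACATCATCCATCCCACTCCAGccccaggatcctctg
Vegfb short-form junction: tgtgaagccagacagCCCCAGGATCCTCTG

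Flt1 gives a full-length receptor and a soluble one, which keeps the ligand-binding part, lacks the membrane and kinase parts and traps ligand. The soluble form reads on into bases that are intron in the full-length form. Capitals mark those 92 coding bases (chr5:147639133-147639224, minus strand) after the last 15 bases of the exon that both forms share.
Flt1 soluble tail: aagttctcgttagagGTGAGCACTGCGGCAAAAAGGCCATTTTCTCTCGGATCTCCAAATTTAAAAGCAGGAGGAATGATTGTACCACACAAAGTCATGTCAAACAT

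Nrp2 ends in either of a pair of alternative tails. The last 20 codons of each are shown, with the last 3 codons in capitals (tail a at chr1:62815575-62815634 and tail b at chr1:62795927-62795986, plus strand). In tail a the last 3 codons spell Ser-Glu-Ala, the motif through which neuropilins bind the adaptor GIPC1, and in tail b they do not.
Nrp2 tail a: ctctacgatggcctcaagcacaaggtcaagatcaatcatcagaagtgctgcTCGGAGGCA
Nrp2 tail b: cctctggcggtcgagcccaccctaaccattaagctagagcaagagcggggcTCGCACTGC

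All 10 genes were detected, meaning at least 1 TPM in both libraries. Levels are in TPM, in which the reads of a transcript are corrected for its length and for the total of the library, so that levels of different genes can be set beside each other. Values are given for replicate 1 and then replicate 2, and means ± SD are over both libraries (n = 2). The tables hold 40395849.9 and 36601054.1 estimated reads in all, of which the family took 27941 and 24163. The median level was 13.5 TPM in the family and 17.2 TPM over the 14583 genes detected in the lung. The deposited interval of each TPM covers counting and read assignment within a library only, and its level is not stated. An interval does not always hold its TPM. For Nrp1 the intervals ended at 69.8 and 64.5 TPM, below its 70.06 and 64.7 TPM. Since the lungs are bulk tissue, fewer cells of a type and less RNA per cell cannot be told apart at any level or difference given here.

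The 5 ligands together had 109.45 and 103.89 TPM, of which Vegfd and Vegfb held most. Vegfd and Vegfb took 39.5 ± 1.06% and 36.1 ± 2.14% of the ligand TPM, Vegfc 11.3 ± 1.26%, Pgf 8.54 ± 1.28% and Vegfa 4.49 ± 0.669%.

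Vegfd (ENSMUSG00000031380.10; chromosome X, 164373378 to 164402650, plus strand), a ligand of FLT4, had 44.1 and 40.3 TPM from 2271 and 1929 reads. Vegfb (ENSMUSG00000024962.9; chromosome 19, 6982473 to 6987651, minus strand) had 41.22 and 35.98 TPM from 1182 and 977 reads. They lay at percentiles 73.0 and 70.9 of the detected genes, and both were lower in replicate 2. The ratio of Vegfd to Vegfb was 1.09 ± 0.0355, and their intervals overlapped in replicate 1, so these genes are not ordered.

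Vegfc (ENSMUSG00000031520.5; chromosome 8, 54077606 to 54187096, plus strand), the ligand required for the first lymphatic sprouts, had 11.37 and 12.64 TPM from 536 and 554 reads. Vegfd exceeded it 3.53 ± 0.488-fold, with no overlap of intervals in either library. Pgf (ENSMUSG00000004791.6; chromosome 12, 85166635 to 85177790, minus strand), named for the placenta, had 8.36 and 9.81 TPM from 328 and 358 reads. Vegfc and Pgf were both higher in replicate 2, and the intervals of each overlapped between the libraries.

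Vegfa (ENSMUSG00000023951.12; chromosome 17, 46016993 to 46032369, minus strand) had 4.40 and 5.16 TPM from 338 and 318 reads, at percentile 22.2 of the detected genes. Vegfb exceeded it 8.17 ± 1.69-fold, Vegfc 2.52 ± 0.0951-fold and Pgf 1.90 ± 0.000822-fold, and its interval overlapped that of none of these ligands in either library. The interval of Vegfa ran from 4.35 to 5.93 TPM in replicate 1 and from 4.89 to 7.06 in replicate 2, so the TPM lay near its lower end. The tables also give a posterior mean TPM, which for Vegfa was 5.11 and 5.94, or 1.16 and 1.15 times its TPM. In the other 9 genes that factor lay between 0.977 and 1.006.

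The 3 receptors had 74.25 and 68.11 TPM together, and Kdr led them. Kdr (ENSMUSG00000062960.7; chromosome 5, 75932827 to 75978458, minus strand) had 51.06 and 46.06 TPM from 7847 and 6590 reads. It took 68.2 ± 0.807% of the receptor TPM and exceeded Flt1 3.25 ± 0.0211-fold, Flt4 6.31 ± 0.610-fold and the ligand Vegfa 10.3 ± 1.89-fold.

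Flt1 (ENSMUSG00000029648.9; chromosome 5, 147561604 to 147726011, minus strand) had 15.62 and 14.22 TPM from 1937 and 1729 reads. Flt4 (ENSMUSG00000020357.3; chromosome 11, 49609263 to 49652739, plus strand) had 7.57 and 7.83 TPM from 1229 and 1174 reads. Flt1 exceeded Flt4 1.94 ± 0.175-fold, and all 3 receptor pairs had separate intervals in both libraries. The FLT4 ligands Vegfd and Vegfc stood 5.49 ± 0.480-fold and 1.56 ± 0.0794-fold above Flt4 itself.

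Nrp1 (ENSMUSG00000025810.8; chromosome 8, 128358604 to 128503363, plus strand), which binds VEGF-A164 beside KDR, had the highest level of the family, with 70.06 and 64.7 TPM from 10766 and 9245 reads. It lay at percentile 82.5 of the detected genes and exceeded Kdr 1.39 ± 0.0230-fold. Nrp2 (ENSMUSG00000025969.11; chromosome 1, 62703285 to 62818695, plus strand), known from veins and lymphatic vessels, had 10.41 and 9.62 TPM from 1507 and 1289 reads. The ratio of Nrp1 to Nrp2 was 6.73 in each library, so the neuropilins kept their proportion between the pools.

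In the order Nrp1, Kdr, Vegfd, Vegfb, Flt1, Vegfc, Nrp2, Pgf, Flt4 and Vegfa, neighbours were called apart where both libraries gave the same order with no overlap of intervals. By that rule 4 of 9 neighbouring pairs were apart: Nrp1 from Kdr, Kdr from Vegfd, Vegfb from Flt1 (2.58 ± 0.0769-fold) and Flt4 from Vegfa (1.62 ± 0.144-fold). Vegfd and Vegfb could not be ordered, nor could any neighbours in the run from Flt1 to Flt4. Nrp2 and Pgf changed places in replicate 2, where the ratio of Nrp2 to Pgf was 0.981.

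**Figure D1:**
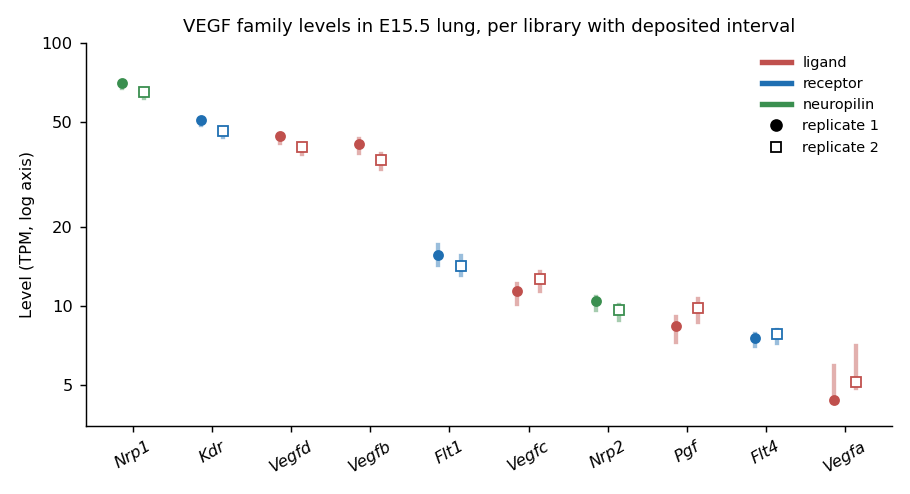
Level of each gene (TPM, log axis) in replicate 1 (filled circles) and replicate 2 (open squares), with the deposited interval of each value as a bar and the colour giving the role. The step from Vegfb to Flt1 is 2.58-fold, and the Vegfa points lie near the lower ends of their bars.

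Below the level of the gene, the annotation gives the members 35 transcripts, 22 of them coding. Vegfc, Pgf and Nrp1 have a single transcript each, and the other 7 genes have several. A transcript was said to lead where it was highest in both libraries and its interval overlapped that of no other transcript of the gene. In 3 of the 7 genes a transcript led: Kdr-201 with 99.4% and 99.6% of the gene's TPM, Flt4-201 with 99.2% and 97.7%, and Vegfd-201 with 99.7% and 99.6%. Kdr-201 and Flt4-201 code for whole receptors of 1345 and 1363 residues in 30 exons. No transcript led in Flt1, Vegfb, Nrp2 or Vegfa. Among the single-transcript genes, Nrp1-201 was counted with 5907 nt and has 3597 nt in M21, and Vegfc-201 was counted with 1881 nt and has 2449 nt, so their levels rest on the counted lengths.

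Flt1 was divided between a full-length, a soluble and a noncoding transcript. Flt1-202, the full-length receptor of 1333 residues, had 6.36 and 5.94 TPM. Flt1-203, the soluble form of 688 residues, had 3.11 and 3.25 TPM. The soluble form stood at 0.489 and 0.547 of the full-length form (0.518 ± 0.0411), and its interval (2.70 to 3.37 and 2.83 to 3.57 TPM) overlapped that of the full-length form in neither library.

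The soluble and full-length coding regions share 12 whole exons. Flt1-203 then ends in an exon of 4375 nt. This exon opens with coding bases that both forms share and reads on into the tail shown above. Of Flt1-203, 4066 nt lie in no other Flt1 transcript. Among the Flt1 transcripts, its 508.82 and 495.19 estimated reads thus had a long stretch of their own to fall on. The 1143.85 and 992.47 reads of Flt1-202 likewise had 4495 nt. The stretch of Flt1-203 is intron in the full-length form. In total RNA, reads there from unspliced Flt1 cannot be told apart from reads of the soluble form. The noncoding Flt1-201, of 12 exons, had 5.41 and 5.03 TPM and an interval (4.20 to 6.47 and 3.71 to 6.10 TPM) that overlapped that of the full-length form in both libraries. Only 241 nt, its last exon, lie in no other Flt1 transcript.

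Vegfb was divided between its long and short products. Vegfb-201, which codes for the long form, had 21.12 and 22.05 TPM, and Vegfb-202, which codes for the short form, had 17.85 and 12.35 TPM. The long form took 51.2% and 61.3% of the gene's TPM, and the ratio of long to short was 1.18 and 1.79 (1.48 ± 0.426). The intervals of the forms overlapped in replicate 1 (17.3 to 23.9 against 14.1 to 21.3 TPM) and were apart in replicate 2 (18.1 to 24.9 against 8.71 to 15.8 TPM). The long form was thus above the short one in both libraries, and in replicate 2 alone by more than the intervals. A transcript with a retained intron, Vegfb-203, had 2.26 and 1.58 TPM.

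Nrp2 transcripts with tail a had 5.61 and 5.04 TPM in sum, and those with tail b 3.73 and 3.48 TPM. Tail a held 53.1 ± 1.02% of the gene's TPM, tail b 36.0 ± 0.267%, and the retained-intron transcript Nrp2-207, at 1.08 and 1.10 TPM, the remainder. The ratio of tail a to tail b was 1.48 ± 0.0394. The intervals of single transcripts were wide beside these sums.

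Nrp2-204, the highest tail a transcript, had 4.52 and 3.59 TPM with intervals of 1.52 to 4.64 and 0.00484 to 3.53. In replicate 2 its TPM thus lay above its interval. Nrp2-203 differs from Nrp2-204 by 15 nt at an exon end and was listed at 0 in both libraries, with intervals that reached 2.71 and 3.41 TPM. Nrp2-201, with tail b, had 2.86 and 2.48 TPM.

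In Vegfa, transcripts with neither exon 6 nor exon 7 held most of the estimate. These were Vegfa-211, with 2.12 and 2.59 TPM, and Vegfa-201, with 1.16 and 1.28 TPM, and in sum they took 74.5% and 75.0% of the gene's TPM. Vegfa-202, the exon 7 form, had 0.79 and 0.20 TPM, with intervals that reached 1.48 and 1.25 TPM. Its coding region of 368 residues in M21 holds VEGF-A164 after an upstream start that adds 178 residues. Vegfa-211, of 324 residues, opens at the same start. Both coding transcripts with exons 6 and 7 were listed at 0, and the interval of Vegfa-207 reached 0.339 and 0.622 TPM.

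These Vegfa shares rest on the transcript models as well as on reads. The last exon is 1887 nt long in Vegfa-201 and Vegfa-202, and 337 nt in Vegfa-207, the longer transcript with both exons. By these M21 models, reads in the rest of that last exon could be assigned to Vegfa-201 or Vegfa-202 but not to Vegfa-207. Vegfa-211 was counted with 3324 nt but has 975 nt in M21, so its class rests on its M21 coding exons, and where its other counted bases lie was not examined. In M21 no coding Vegfa transcript has a base that no other Vegfa transcript shares. By posterior mean TPM the transcripts with neither exon took 60.5% of the gene, against 74.8% by TPM.

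**Figure D2:**
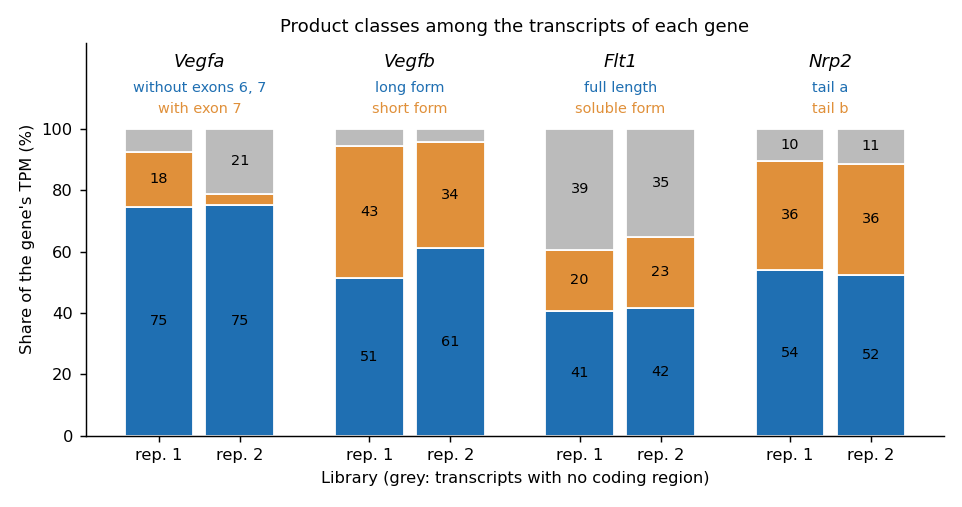
Share of the gene's TPM (%) held by product classes of Vegfa, Vegfb, Flt1 and Nrp2 in each library, with transcripts of no coding region in grey. The Flt1 and Nrp2 classes differ by a few points between libraries, and the Vegfb long form goes from 51% in replicate 1 to 61% in replicate 2.

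**Figure D3:**
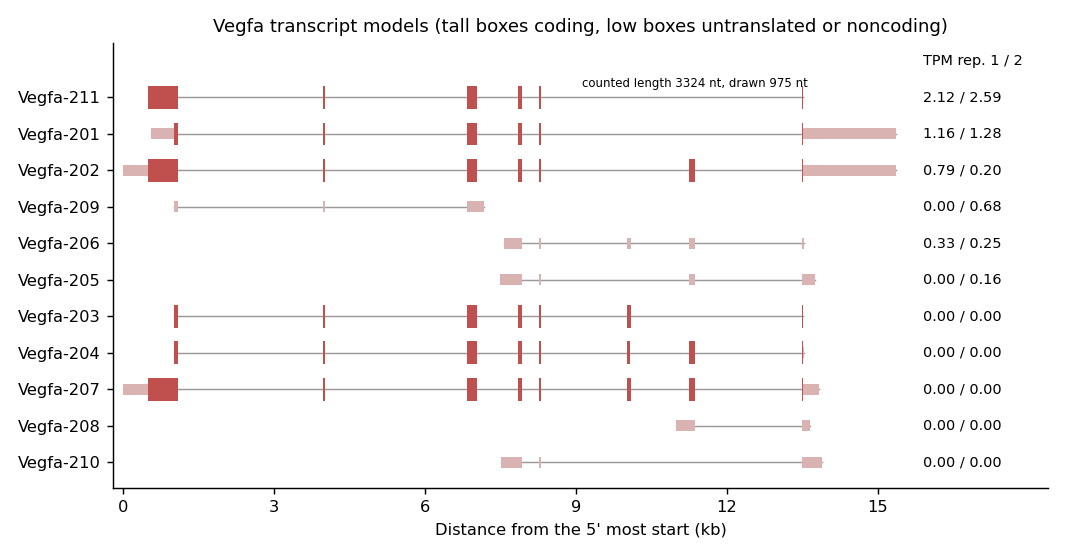
Transcript models of Vegfa in M21, drawn to scale from the 5′ end (kb), with tall boxes for coding and low boxes for other exon parts, and the TPM of replicates 1 and 2 at the right. The long last exon is drawn for Vegfa-201 and Vegfa-202 only, and both coding transcripts with exons 6 and 7 are listed at 0.

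Among member transcripts with at least 1 TPM in both libraries, 14 of 17 had overlapping intervals between the libraries. The 3 without overlap were Kdr-201, Nrp1-201 and Vegfd-201, all higher in replicate 1. Of all 30068 transcripts at that level, 8.03% had intervals that did not overlap. At the level of the gene, the deposited posterior SD of the count was 0 for each of the 10 members, as for 66.6% of genes with at least 5 TPM, so the tables record no doubt between a member and another gene in the assignment of its reads. Nrp1 and Nrp2 overlap other M21 genes. Mir1903 in Nrp1 had 0 reads, the antisense Gm29083 at Nrp2 had 1 and 6 reads, and Gm37121 within Nrp2 had 23 and 8. How strand was used in counting is not given here, so reads of Nrp2 and Gm29083 cannot be told apart.

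The comparison of the embryo pools asks how far the levels vary between pools. None of the 10 members was apart between the libraries, meaning a mean of at least 5 TPM, a difference of 2-fold or more after scaling and separate intervals. By that rule 41 of 11261 genes (0.364%) were apart, so a count of 0 among 10 is near the background. Without the condition on intervals the background was 0.595%, and the count of members was again 0. The scaled log2 ratio of replicate 2 over replicate 1 ran among the members from -0.12 (Vegfb) to 0.30 (Pgf and Vegfa), and its median was -0.04, against 0.01 over all detected genes. The median size of the log2 ratio was 0.0987 in the members and 0.0917 in all detected genes.

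Among the other ligands the ratio was -0.06 for Vegfd and 0.22 for Vegfc. Among the receptors it was -0.08 for Kdr, -0.06 for Flt1 and 0.12 for Flt4, and it was -0.04 for both neuropilins. The 4 members with the higher level in replicate 2 were Vegfc, Pgf, Flt4 and Vegfa, and the other 6 were higher in replicate 1. By estimated counts the ratio of Flt1 was 0.01, so its direction was not kept. Every ratio lay within the range from -0.56 to 0.41 that held the middle 95% of detected genes. For Vegfa the ratio was 0.09 from the estimated counts, against 0.30 from TPM. The effective length of Vegfa, which TPM takes into account and which depends on the transcripts assigned, was 2900.3 nt in replicate 1 and 2507.4 nt in replicate 2.

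The deposited intervals alone, with no condition on size, did not overlap between the libraries for 4 members, Nrp1, Kdr, Vegfd and Vegfb, all higher in replicate 1, against 17.4% of all genes with at least 5 TPM. With the interval of replicate 2 scaled like its TPM, an alternative chosen after seeing the data, 2 members and 13.5% of the genes had separate intervals.

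**Figure D4:**
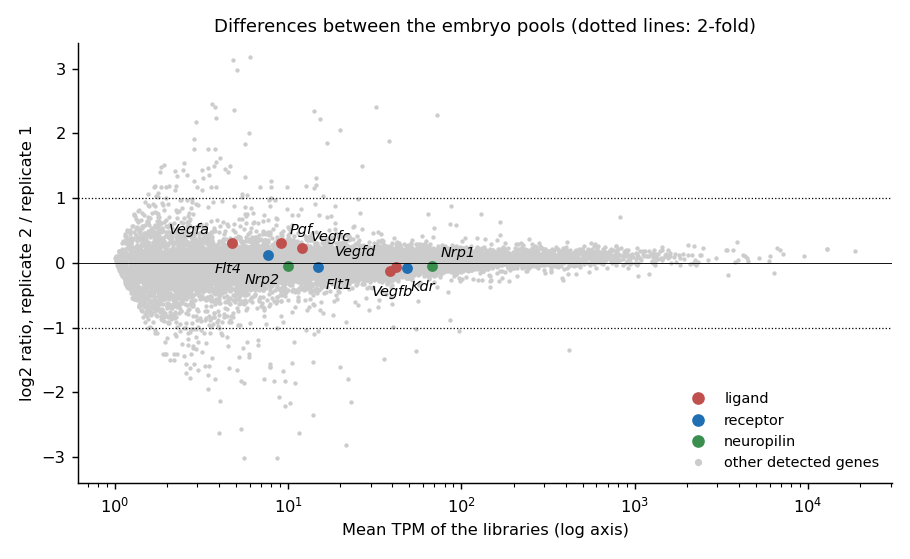
Scaled log2 ratio of replicate 2 over replicate 1 against mean TPM (log axis) for all detected genes in grey and the family in the colour of its role, with dotted lines at 2-fold. All members lie between -0.12 and 0.30, inside the spread of genes at like levels.

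The libraries differed in markers of tissues that can come along with a lung, and whether the pools held different amounts of such tissue was not tested. The summed TPM of 6 liver markers was 32.8 in replicate 1 and 152 in replicate 2, with all 6 apart, and that of 6 heart and muscle markers was 147 and 278, with 5 apart. Of these 5, Myl2, Myl3, Myh7 and Acta1 were higher in replicate 2, while Myh6, an atrial myosin, was lower there, at 80.27 and 29.88 TPM. The sum of 7 thymus markers was 36.8 and 9.71, with 1 apart. All 7 were lower in replicate 2, and those not apart had means below the 5 TPM that the rule requires. The part of these tissues in the levels of the VEGF family was not tested. No marker of endothelium, lymphatics, capillaries, epithelium, mesenchyme or red cells was apart.

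The receptors were set beside markers of the vessels that carry them. All 12 endothelial markers were detected, with sums of 1268 and 1210 TPM, from Egfl7, a secreted endothelial protein, at 287 ± 3.15 TPM to the transcription factor Erg at 9.49 ± 1.33. Kdr stood at 0.508 ± 0.00830 of the level of Pecam1, a junction protein of all endothelium, and at 0.795 ± 0.0230 of that of Cdh5, the endothelial cadherin. Flt1 stood at 0.156 ± 0.00154 of the level of Pecam1, and Nrp1 at 0.706 ± 0.000179. Relative to its mean, each of these ratios varied less between the pools than the level of its receptor or neuropilin did. The levels are TPM before scaling, while a ratio within a library does not depend on scaling. Part of the smaller spread of these ratios is therefore built in. Flt4 went the other way: at 0.0808 ± 0.00649 of Pecam1, its ratio varied more than its level, 7.70 ± 0.184 TPM. Whether the receptors follow the share of endothelium was not tested.

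Flt4 was set beside lymphatic markers, of which 5 of 6 were detected. The highest was Ccl21a, a chemokine of lymphatic vessels, at 64.4 ± 4.70 TPM, and the lowest detected was Prox1, the factor that sets lymphatic identity, at 1.59 ± 0.163. Reln had 1.48 and 0.95 TPM and was not detected by the rule. Flt4 stood 4.89 ± 0.618-fold above Prox1 and at 0.179 ± 0.0216 of the level of Lyve1, which macrophages also express. Of 5 capillary markers 4 were detected, from the apelin receptor gene Aplnr at 153 ± 2.63 TPM to Gpihbp1 at 30.2 ± 0.679. Car4, which marks a capillary type of the later lung, had 0.72 and 0.49 TPM and was not detected.

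Of the genes around the ligands, all 10 oxygen sensing regulators were detected (list median 28.1 TPM). The highest was Hif1a, the oxygen-regulated factor known to drive Vegfa, at 73.5 ± 0.742 TPM, and the lowest was Arnt2, a partner of such factors, at 6.98 ± 0.0778. The mean of Vegfa, 4.78 ± 0.537 TPM, lay below those of all 10, and its interval overlapped those of Arnt2 and Epas1 in replicate 2. VEGF-C and VEGF-D are made as precursors that proteases cut, and all 8 processing genes passed detection, their median being 12.4 TPM. Ctsd, which encodes the lysosomal protease cathepsin D, was highest at 244 ± 18.3 TPM, and Adamts14 lowest at 1.49 ± 0.156. Ccbe1 and Adamts3, whose products together cut VEGF-C, had 1.95 ± 0.0495 and 2.73 TPM and were picked out after their values were seen.

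Of the genes around the receptors, all 13 neuropilin partners were detected, with a median of 10.9 TPM, from the adaptor Gipc1 at 165 ± 1.99 TPM to the plexin Plxna4 at 1.54 ± 0.269. Gipc1, whose product binds the residues that the last codons of tail a encode, thus exceeded both neuropilins. Of 17 receptor signalling genes 16 were detected (list median 43.8 TPM), and the lowest of these was Ptprb, an endothelial phosphatase, at 8.47 ± 0.948 TPM. Sh2d2a, which encodes an adaptor of KDR, had 0.84 and 0.35 TPM and was not detected.

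Of 8 genes known to respond to VEGF in endothelial cells 6 were detected, with a median over the list of 6.93 TPM. Rcan1, a calcineurin inhibitor, was highest at 41.3 ± 2.46 TPM, and Angpt2, a TIE2 ligand, was the lowest detected at 5.98 ± 0.276. Esm1, a tip cell gene, had 0.98 and 1.61 TPM, and the transcription factor gene Egr3 had 0.37 and 0.40 TPM. All 4 angiopoietin and TIE genes were detected, from Tie1 at 72.2 ± 0.721 TPM to Angpt2. No gene of these pathway lists was apart between the libraries. The medians of the lists are descriptions beside the 17.2 TPM of all detected genes, and nothing was tested on them.

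**Figure D5:**
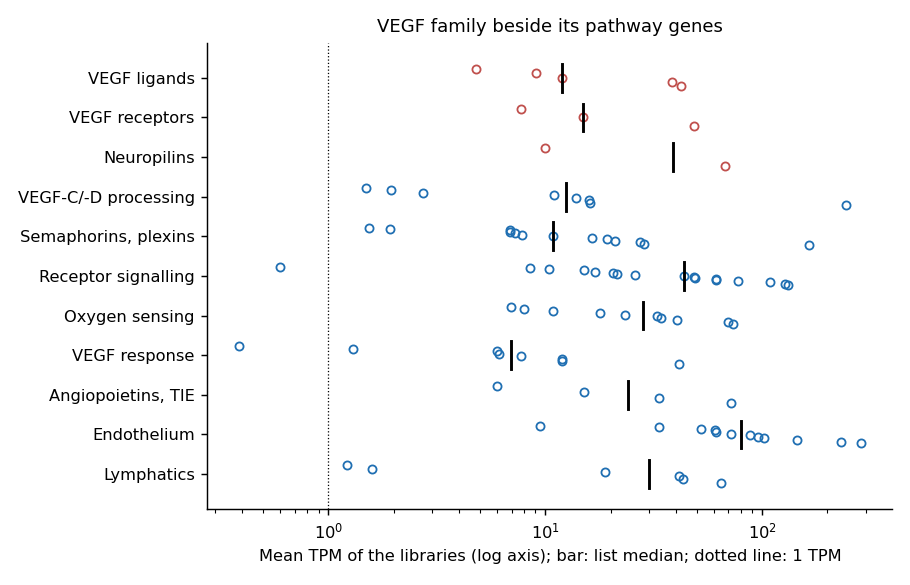
Mean TPM of the libraries (log axis) for each gene of the family (red) and of the lists around it (blue), with a black bar at the median of each list and a dotted line at the 1 TPM used for detection. Vegfa, the lowest member at 4.78 TPM, has a mean below those of all 10 oxygen sensing genes, and the median of the endothelial list is 80.1 TPM.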

How the data were processed

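Total RNA of mouse lung (10 ng per library, size-selected for long RNA, spike-ins added) was extracted with mirVana, per the labels' protocols. The authors deposited a gene and a transcript table per library. The authors' tables give the expected count, TPM and FPKM of each feature and the percent of its gene that each transcript holds, per the file headers. The authors' posterior means and SDs and the bounds of the TPM intervals, entered here as signal values, also follow the file headers, which do not state the level of the interval. The deposited text names mm10 and annotation M4. For the quantifier, its version and its use of strand: not given in the sources used here.

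Names, positions and exons came from GENCODE M21 (GRCm38) by identifier, with 97.96% of identifiers matched. Spike-ins took 2.14% and 2.37% of reads, and 26248 numbered features that name no gene, left out, took 0.000176% and 0.000180%. Estimated counts were rounded for TMM scaling (edgeR 4.0.16), which shifted replicate 2 by 0.07 (log2), and DESeq2 1.42.0 size factors, an alternative, shifted it by 0.07. Levels are TPM as deposited, and log2 ratios are after TMM, with no pseudocount. The labels call the libraries biological replicates, and each pool has a single library. Product classes were set from coding exons, not from levels. All members were named, with the highest, lowest and undetected gene of each list, except 1 gene that is not reported here. Alternatives were other detection minimums, scalings, folds and interval rules, posterior means and each library alone. The rule for genes apart between the libraries was tested on simulated gene counts without shared reads. The rules for neighbours in the order and for leading transcripts were not tested in that way. Members and lists were chosen with earlier results of these data known.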

Additional observations from a re-analysis of the deposited data

How the results depend on the processing

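All 10 members stayed detected at 0.5 TPM, by posterior mean and in each library alone, and 9 at 5 TPM, where Vegfa dropped out. The count of members apart between the libraries was 0 under all 6 alternatives tried. Neighbours apart in the order went from 4 to 2 when a 1.5-fold difference replaced the intervals, and were 6 to 7 with a library left out. Members with a leading transcript went from 3 to 7 without intervals and were 3 to 4 with a library left out. Members with separate intervals went from 4 to 2 after scaling replicate 2, an alternative chosen after seeing the data. By posterior mean, Vegfa with neither exon went from 74.8% to 60.5%, full-length Flt1 from 41.2% to 40.2% and Nrp2 tail b from 36.0% to 35.6%. Of 40 recomputed member levels 2 moved beyond the SD (Vegfa to 5.53 TPM by posterior mean, Flt4 to 8.10 TPM rescaled over genes), and of 40 log2 ratios 2 moved by over 0.1 (Vegfa to 0.19 with log2(TPM + 1) and to 0.09 from counts). Of 54 list medians 5 moved. The log2 ratio of Flt1 changed sign, from -0.06 to 0.01, when taken from counts.

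With 2 libraries the SD rests on a single difference, and the intervals leave out duplicate molecules, which libraries without molecular identifiers cannot show. Transcript levels, above all of Vegfa, depend on the annotation counted. No paired analysis was possible because the single group has nothing to pair with.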
